A study of Rattus norvegicus with 35 samples.

Results

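The Cyp3a family was read on the expression arrays by every probe set annotated to 1 of 5 listed rat genes. A probe set is a group of array probes that together report a transcript. Of 14217 genes named on the array, 4 were listed members, namely Cyp3a23-3a1 (NCBI gene ID 25642), Cyp3a2 (266682), Cyp3a9 (171352) and Cyp3a18 (252931). Each was read by 1 of the 31042 non-control probe sets. No probe set named Cyp3a62, which is not analysed here.

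The cells were primary rat hepatocytes, liver cells taken from the animal and kept in culture, exposed through the medium for 72 h. The compounds were the triazole fungicides Myclobutanil, Propiconazole and Triadimefon at 10, 30 and 100 uM each, and 2 positive controls, phenobarbital (PB) at 200 uM and PCN at 30 uM. The labels give PCN only by these letters, the usual abbreviation of the rodent receptor activator pregnenolone carbonitrile. The comparison group received the solvent DMSO, at 0.1% according to the design text, although the array titles read 0.001. The design text calls the arrays of a group biological replicates. Each group held 3 arrays, except that PCN held 2, which gave 35 arrays in 12 groups. Every array carried the code Rs256, Rs293 or Rs304, with at most 1 array of a code in a group, and no PCN array was coded Rs256. What the code marks is not stated in the labels. Strain, sex, age and the solvent of the treated cultures are not given in the labels.

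CYP3A enzymes are cytochromes P450 of the endoplasmic reticulum of liver and gut that oxidise steroids, bile acids and a large share of drugs. Their genes are the classical readout of the pregnane X receptor (PXR), a nuclear receptor that binds foreign compounds and steroids, pairs with the retinoid X receptor and binds repeated copies of a short hexamer in the promoters of its targets. The constitutive androstane receptor (CAR), which phenobarbital activates, shares many of these binding sites. Triazole fungicides act in fungi by blocking the P450 that demethylates lanosterol. All 3 carry a triazole ring, and they differ in the rest of the molecule: Myclobutanil carries a nitrile, Triadimefon a ketone and Propiconazole a dioxolane ring.

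In rat, Cyp3a23-3a1 is the form known for its induction by PCN and glucocorticoids. Cyp3a2 is known for its male-predominant level in adult liver and its hydroxylation of testosterone, Cyp3a18 is another steroid hydroxylase of liver, and Cyp3a9 is a form that is female-predominant in adult liver. The 4 genes lie on chromosome 12 of the RefSeq assembly GRCr8. Cyp3a18 (13994312 to 14044185), Cyp3a2 (14321771 to 14343886) and Cyp3a23-3a1 (14369950 to 14398803) lie near each other, and Cyp3a9 (21919955 to 21960160) lies farther along, after Cyp3a62 (21511763 to 21547598). These positions describe the genes only, since the array files name no genome build.

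The promoter windows are shown because PXR is known to act through repeats of this kind and the members differ in them. Each window is RefSeq sequence of GRCr8, 5′ to 3′ on the gene's strand, from 250 bases before to 50 bases after the annotated transcript start. Capitals mark the hexamer AGTTCA or its reverse complement TGAACT, and, where 2 copies stand as a direct repeat 3 bases apart, the whole repeat. The windows are chr12:14398754-14399053 on the minus strand for Cyp3a23-3a1, chr12:14343808-14344107 on the minus strand for Cyp3a2, chr12:13994062-13994361 on the plus strand for Cyp3a18 and chr12:21960111-21960410 on the minus strand for Cyp3a9.
Cyp3a23-3a1: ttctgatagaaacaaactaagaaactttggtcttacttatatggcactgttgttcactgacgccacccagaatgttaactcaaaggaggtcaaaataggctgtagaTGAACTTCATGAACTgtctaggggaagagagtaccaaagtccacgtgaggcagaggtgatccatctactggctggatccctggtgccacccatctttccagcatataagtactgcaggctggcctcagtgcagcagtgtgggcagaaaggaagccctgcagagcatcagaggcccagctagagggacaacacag
Cyp3a2: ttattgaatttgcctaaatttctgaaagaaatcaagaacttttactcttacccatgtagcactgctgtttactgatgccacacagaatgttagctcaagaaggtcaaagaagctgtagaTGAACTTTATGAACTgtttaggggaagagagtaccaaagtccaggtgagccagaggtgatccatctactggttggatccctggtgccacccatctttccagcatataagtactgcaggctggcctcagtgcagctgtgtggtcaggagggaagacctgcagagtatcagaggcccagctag
Cyp3a18: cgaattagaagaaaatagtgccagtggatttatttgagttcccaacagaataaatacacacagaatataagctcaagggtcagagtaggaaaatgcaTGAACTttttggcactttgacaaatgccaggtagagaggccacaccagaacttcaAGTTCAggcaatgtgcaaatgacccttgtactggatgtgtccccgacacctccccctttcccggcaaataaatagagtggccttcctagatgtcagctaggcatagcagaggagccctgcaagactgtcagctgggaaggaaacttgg
Cyp3a9: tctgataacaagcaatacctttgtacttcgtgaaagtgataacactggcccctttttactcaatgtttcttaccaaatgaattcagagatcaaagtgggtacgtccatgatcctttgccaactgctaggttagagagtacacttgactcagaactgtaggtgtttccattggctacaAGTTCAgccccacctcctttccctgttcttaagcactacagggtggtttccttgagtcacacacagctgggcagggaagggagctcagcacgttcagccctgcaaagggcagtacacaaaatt

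The direct repeat of AGTTCA with a spacer of 3 bases, searched on both strands, was present in 2 of 33469 RefSeq promoter windows (0.00598%), those of Cyp3a23-3a1 and Cyp3a2. In Cyp3a23-3a1 it read TGAACTTCATGAACT, from position -144 to position -130 relative to the transcript start. In Cyp3a2 it read TGAACTTTATGAACT, from -131 to -117, where the start used is that of a transcript beginning just inside the annotated gene. A looser search, in which each hexamer could also be AGGTCA in place of AGTTCA, or could be GGTTCA, or else GGGTCA, found the direct repeat in 33 windows (0.0986%). The Cyp3a18 window held 2 separate AGTTCA hexamers and 2 GGGTCA hexamers, and the Cyp3a9 window 1 AGTTCA hexamer, with no such repeat in these windows. A single AGTTCA is common, being present in 14.5% of all windows, and it also makes up both parts of the repeat above. The aligned windows of Cyp3a23-3a1 and Cyp3a2 were identical at 89.1% of bases, against 62% to 69.2% for the other pairs of measured members. These matches describe letters in a window. The motif was picked with the sequences and the known biology in view.

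**Figure D1:**
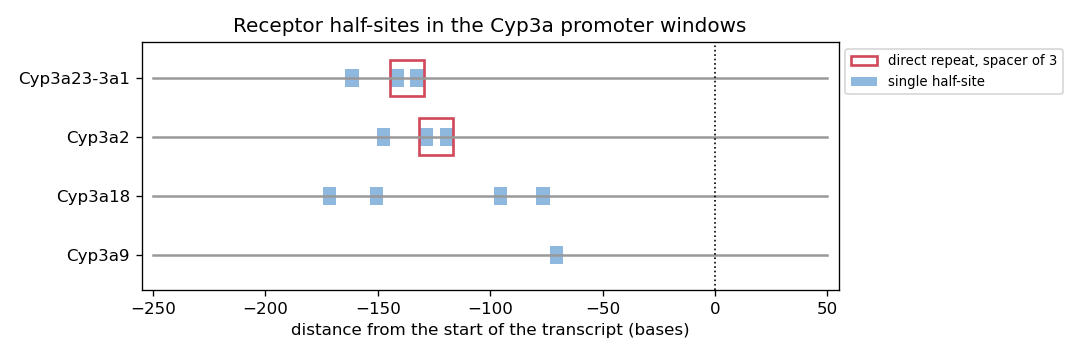
Hexamers in the promoter windows of the 4 measured Cyp3a genes, drawn by distance in bases from the annotated transcript start (dotted line), 1 row per gene. Blue blocks are single hexamers and red boxes are direct repeats 3 bases apart, which, among these windows, only the rows of Cyp3a23-3a1 and Cyp3a2 hold.

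Levels stand on the deposited scale, which is log-like with no stated base, after quantile normalization over the 35 arrays. Array spike-in controls, taken at their usual concentrations, rose by 0.487 units per doubling (SD 0.0241 over arrays). Because the base is not stated, differences stand in units and not as folds. Against each array's median probe set, Cyp3a23-3a1 and Cyp3a18 lay above it on 35 of 35 arrays, Cyp3a2 on 27 and Cyp3a9 on 13. A difference was called when its adjusted p from limma, over the 17971 probe sets tested, lay below 0.05. Under the array filter all 4 members were tested. Hepatocyte markers on the array lay above the median on every array for 9 of 9 genes, Alb among them. No tested probe set belonged to the endothelial or lymphocyte list. Above the median on 35 arrays were 1 of 5 macrophage markers (Cd14) and 2 of 7 stellate cell markers (Vim and Acta2). So was 1 of 5 cholangiocyte markers (Epcam). The other markers of these lists were not, among them Cd163 and Lrat, each above it on 0 arrays. The arrays were of cultures, so a change in the kinds of cells present and a change in RNA per cell cannot be told apart. On the deposited scale, 1 array stood apart, the Propiconazole 30 uM array of Rs293, with an SD of 0.937 against at most 0.751 on every other array.

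Cyp3a23-3a1 rose with all 3 triazoles at 100 uM, and its mean lay above that of DMSO in the other 8 treatments too. Myclobutanil at 100 uM gave 3.69, 3.72 and 3.68 units on the Rs256, Rs293 and Rs304 arrays. Propiconazole at 100 uM gave 3.67, 3.50 and 3.56 units in the same order of codes. Triadimefon at 100 uM gave 3.68, 3.66 and 3.72 units. In DMSO the Rs256 array read 3.32 units, the Rs293 array 2.52 and the Rs304 array 2.52. Every 100 uM array thus lay above every DMSO array on the normalized values, a separation whose share over all probe sets was not counted. The Rs256 DMSO array was the highest of the controls. As deposited, the Propiconazole array of Rs293 at 100 uM (3.06) lay below that control array (3.28). The difference from DMSO was 0.91 units with Myclobutanil (SE 0.178, adjusted p = 0.0131), 0.79 with Propiconazole (SE 0.178, adjusted p = 0.00367) and 0.90 with Triadimefon (SE 0.178, adjusted p = 0.00801), each from limma with 3 arrays per group. These 3 calls were the only ones among the 44 tests of a member against DMSO, of which 16 had an unadjusted p under 0.05. The SE pools the spread of all 12 groups, while the Cyp3a23-3a1 SD was 0.46 in DMSO and 0.02 to 0.09 at 100 uM. In limma fits of only the groups compared, none of the 3 was called (adjusted p = 0.329, 0.0846 and 0.157 in the same order). Of all probe sets tested, 0.373% were called higher with Myclobutanil at 100 uM, 5.79% with Propiconazole and 0.69% with Triadimefon. The summed level of the 5 macrophage markers on the array (of 7 listed) was 0.86 to 2.34 units with Myclobutanil at 100 uM, 1.91 to 2.73 with Propiconazole and 0.59 to 2.94 with Triadimefon, against 0.57 to 1.95 in DMSO. That of the 9 hepatocyte markers was 30.3 to 31.1, 29.2 to 30.8 and 29.99 to 31.1 units in the same order, against 30.6 to 31.5 in DMSO. The actin control probe sets, read as 3′ minus 5′ end, differed by 0.570 to 0.725 units with Propiconazole at 100 uM, against 0.744 to 0.810 in DMSO. The actin range was also wholly below that of DMSO with PCN (0.593 to 0.601) and, at 10 uM, with Propiconazole (0.632 to 0.656) and Myclobutanil (0.665 to 0.734). In the other treatments it overlapped DMSO. The GAPDH controls read 0.080 to 0.263 units with Propiconazole at 100 uM, against 0.148 to 0.251 in DMSO. The part of these measures in the results at 100 uM was not tested.

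At 30 uM the Cyp3a23-3a1 level was 3.66, 3.65 and 3.52 units with Myclobutanil on the Rs256, Rs293 and Rs304 arrays, 3.76, 3.65 and 3.75 with Propiconazole, and 3.77, 3.65 and 3.56 with Triadimefon. At 10 uM it was 3.56, 3.08 and 3.13 units with Myclobutanil, 3.67, 3.47 and 3.47 with Propiconazole, and 3.68, 3.45 and 3.43 with Triadimefon. At these 2 doses only Myclobutanil at 10 uM overlapped the DMSO arrays on the normalized values, through its Rs293 and Rs304 arrays. The share of all probe sets without such overlap was not counted. As deposited, each triazole also had an array at 30 uM below the Rs256 DMSO array (3.28), as had Propiconazole and Triadimefon at 10 uM. Among these were Propiconazole at 30 uM on Rs304 (3.01) and Triadimefon at 10 uM on Rs293 (2.91). The differences from DMSO at 30 uM were 0.83 units for Myclobutanil (adjusted p = 0.774), 0.94 for Propiconazole (adjusted p = 0.0653, and 0.0486 with 1 probe set kept per gene) and 0.88 for Triadimefon (adjusted p = 0.0883). At 10 uM they were 0.47, 0.75 and 0.73 units, each with an adjusted p of 1. The unadjusted limma p was 8.61e-05, 1.73e-05 and 4.12e-05 at 30 uM, and 0.014, 0.000252 and 0.000337 at 10 uM. It was 0.000142 for the called Propiconazole difference at 100 uM. The adjusted p also depends on how many other probe sets changed, so these calls do not rank the doses. The share of probe sets called higher was 0.00556% for Myclobutanil, 0.0111% for Propiconazole and 0.0223% for Triadimefon at 30 uM, and 0%, 0.00556% and 0% at 10 uM. All comparisons with DMSO share the same 3 control arrays.

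With the Rs code as a replicate block in the fit, 12 of the 44 tests were called, all of them higher than DMSO. Cyp3a23-3a1 was called at 100 uM with each triazole, and also at 30 uM with Propiconazole (adjusted p = 0.00237) and Triadimefon (adjusted p = 0.0057). In this fit 1.19% and 0.506% of probe sets were called higher in those 2 comparisons, and 3.77%, 13.7% and 4.71% with Myclobutanil, Propiconazole and Triadimefon at 100 uM. That share was 0.0167% with Myclobutanil at 30 uM, Propiconazole at 10 uM and PB, where no member was called. The Myclobutanil and Triadimefon calls without the block depended on single arrays. Without the Rs256 DMSO array the count was 9 of 44, all Cyp3a23-3a1, including PB (difference 0.95, adjusted p = 0.0423). Without the Rs293 or the Rs304 DMSO array it was 1, Propiconazole at 100 uM, with an adjusted p of 0.0365 and 0.0332 in that order. The Myclobutanil call at 100 uM was also lost without its own Rs293 array (adjusted p = 0.05001) or its own Rs256 array (adjusted p = 0.0526). On the values as deposited none of the 44 was called, and the Cyp3a23-3a1 differences at 100 uM were 1.02 for Myclobutanil (adjusted p = 0.809), 0.71 for Propiconazole (adjusted p = 0.455) and 1.02 for Triadimefon (adjusted p = 0.561).

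**Figure D2:**
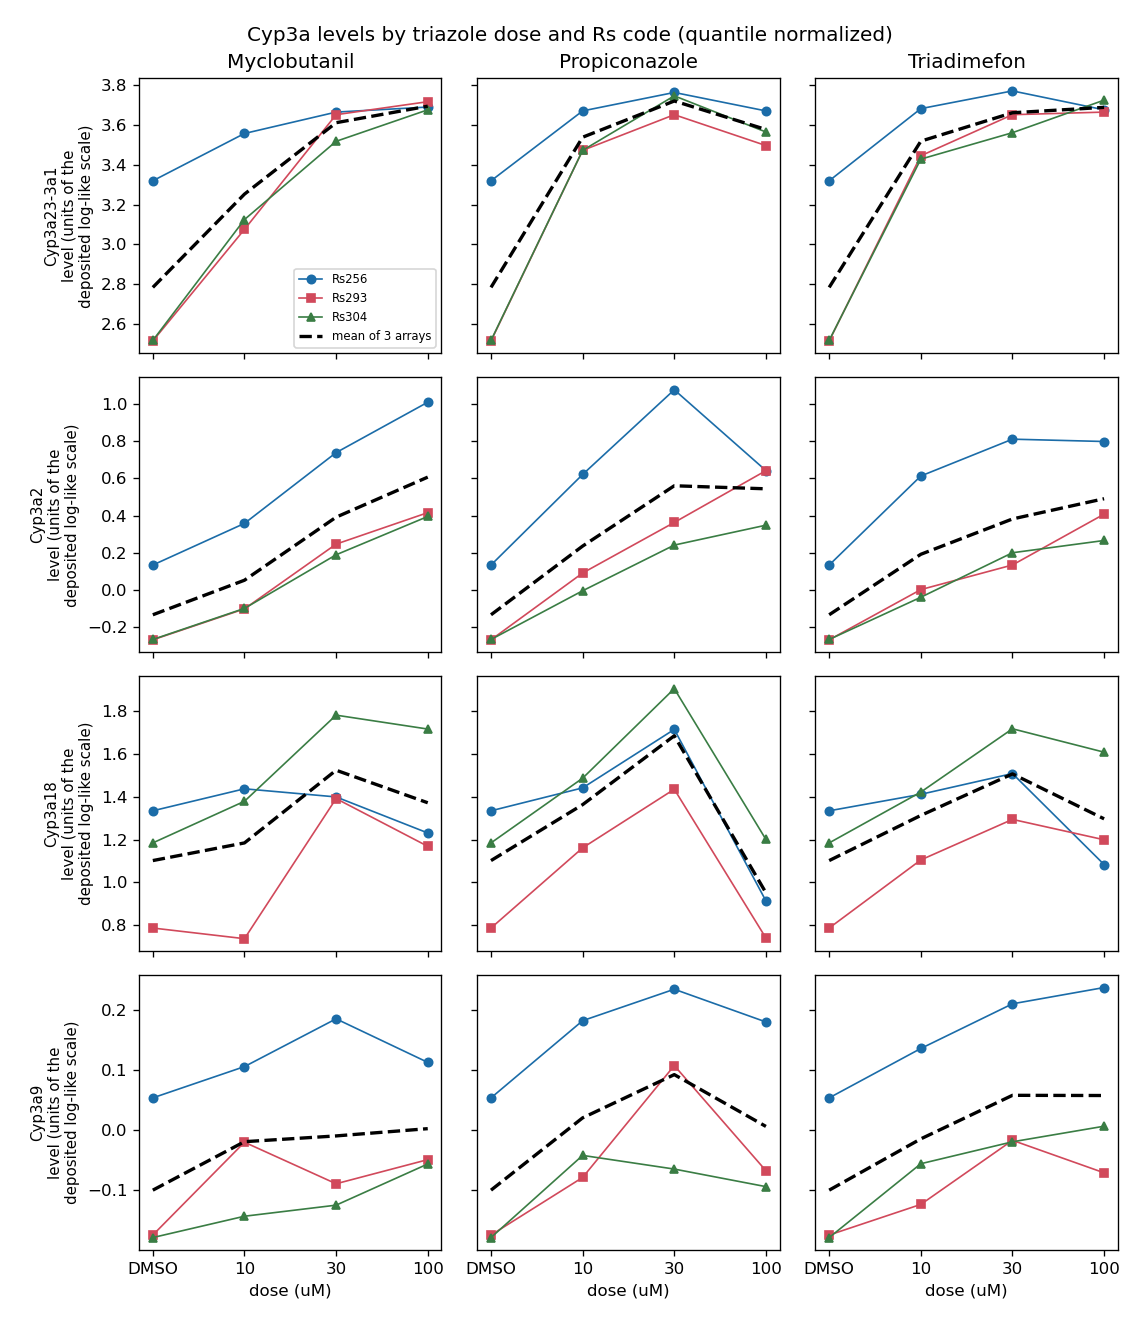
Normalized level of the 4 measured Cyp3a genes (vertical axes, units of the deposited log-like scale, 1 row per gene) against dose in uM from DMSO to 100 uM (horizontal axes, doses evenly spaced), 1 column per triazole. Coloured lines join arrays of an Rs code and the dashed line is the mean of 3 arrays. Cyp3a23-3a1 lies between 3.43 and 3.77 units on every 30 and 100 uM array and on the 10 uM arrays of Propiconazole and Triadimefon.

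The Cyp3a2 means lay above that of DMSO in all 11 treatments, and none passed the test without the block. Myclobutanil at 100 uM gave 1.01, 0.42 and 0.39 units on the Rs256, Rs293 and Rs304 arrays, Propiconazole 0.64, 0.64 and 0.35, and Triadimefon 0.80, 0.41 and 0.27, against 0.13, -0.27 and -0.27 in DMSO. Each 100 uM array lay above every DMSO array, and the Rs256 array was the highest or tied for the highest in each of these groups. The differences from DMSO were 0.74 (SE 0.264), 0.68 and 0.63 units, and none was called (adjusted p = 0.257, 0.103 and 0.315). With the replicate block all 3 were called (adjusted p = 0.00158, 0.000657 and 0.00467), as was Propiconazole at 30 uM with a difference of 0.70 (adjusted p = 0.682 without the block and 0.0106 with it). Each of the 27 triazole arrays was higher than the DMSO array of its own code, by 0.17 to 0.95 units. That range was 0.24 to 1.23 units for Cyp3a23-3a1, also in 27 of 27. The 9 triazole arrays of a code share its 1 DMSO array, so these comparisons are not independent. The share of all probe sets that behave this way was not counted, nor was the share whose 100 uM arrays all lie above every DMSO array.

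The Cyp3a18 mean was highest at 30 uM of each triazole. At 30 uM it read 1.72, 1.44 and 1.91 units with Propiconazole on the Rs256, Rs293 and Rs304 arrays, against 1.34, 0.79 and 1.18 in DMSO. At 100 uM the same compound gave 0.91, 0.74 and 1.20 units, a mean below that of DMSO, and each of its 3 arrays was lower than the 30 uM array of its code. The difference from DMSO was 0.58 units at 30 uM (SE 0.235, adjusted p = 0.741, and 0.0397 with the replicate block) and -0.15 at 100 uM (adjusted p = 0.787). Propiconazole at 100 uM minus 30 uM was -0.73 units (SE 0.235, 95% interval -1.22 to -0.25), with an adjusted p of 0.0755, and 0.00107 with the replicate block. Of all probe sets 4.27% were called in that comparison, and 17.5% with the block. On the values as deposited it was -0.86 (adjusted p = 0.0396). For the same step Cyp3a23-3a1 moved by -0.14 units, Cyp3a2 by -0.02 and Cyp3a9 by -0.09, none of them called.

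Cyp3a18 with the other triazoles gave 1.52 ± 0.22 units at 30 uM and 1.37 ± 0.30 at 100 uM of Myclobutanil, and 1.51 ± 0.21 at 30 uM and 1.30 ± 0.28 at 100 uM of Triadimefon, against 1.10 ± 0.28 in DMSO (SD, n = 3 each). None of these differences from DMSO was called. Here the Rs304 arrays were the highest of their group in all 9 triazole groups except Myclobutanil at 10 uM.

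Cyp3a9 had the smallest differences from DMSO. Its 35 arrays spanned -0.21 to 0.24 units, around the median of the arrays. It read 0.24, 0.11 and -0.06 units with Propiconazole at 30 uM and 0.24, -0.07 and 0.01 with Triadimefon at 100 uM, against 0.05, -0.17 and -0.18 in DMSO. The groups overlap, and the Rs256 array was the highest of every group that had one. The differences were 0.19 and 0.16 units (SE 0.113 each, adjusted p = 0.965 and 0.673), and both were called with the replicate block (adjusted p = 0.0177 and 0.0188). Within codes each of the 27 triazole arrays was above its DMSO array, by 0.04 to 0.28 units. The DMSO array of a code was again shared, and the share of all probe sets like this was not counted.

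**Figure D3:**
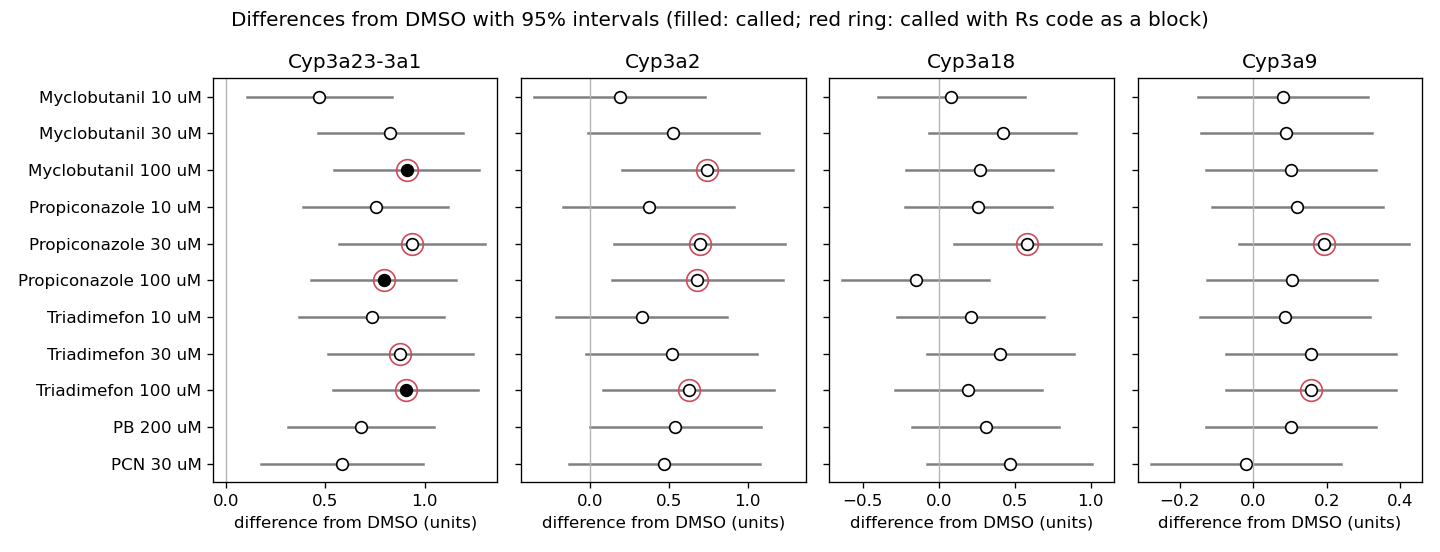
Difference from DMSO in units (horizontal axes) for 11 treatments (rows) and the 4 measured Cyp3a genes (panels, with separate axis ranges), with 95% intervals from the fit without a block. Filled points were called, at 100 uM of each triazole for Cyp3a23-3a1, and red rings mark the 12 calls made with the Rs code as a block.

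Whether the members changed by unequal amounts was tested within arrays, with the 18 triazole arrays at 30 and 100 uM set against the 3 DMSO arrays and labels permuted within Rs code. Cyp3a23-3a1 changed by 0.87 units, Cyp3a2 by 0.63, Cyp3a18 by 0.29 and Cyp3a9 by 0.13. The Cyp3a23-3a1 change exceeded that of Cyp3a9 by 0.74 units and that of Cyp3a18 by 0.59, and the Cyp3a2 change exceeded that of Cyp3a9 by 0.50. Each of these 3 had an exact p of 0.00292, the smallest that 343 relabelings allow, and an adjusted p of 0.00583 over 6 pairs. Cyp3a23-3a1 minus Cyp3a2 was 0.24 units (exact permutation p = 0.0845, adjusted p = 0.127), and Cyp3a2 minus Cyp3a18 was 0.34 (exact permutation p = 0.12, adjusted p = 0.143). Cyp3a9 minus Cyp3a18 was -0.15 units (adjusted p = 0.362, exact permutation). On the values as deposited 1 of the 6 was called instead of 3. Cyp3a9 lay at about the array median, and whether its probe set read above background is not known here, so its small change is a reading of the probe set and its pairs do not show how the transcripts differed. Cyp3a2 lay below that median in the Rs293 and Rs304 DMSO arrays. Probe sequences were not used here, so cross-hybridization between the probe sets of Cyp3a23-3a1 and Cyp3a2 was not tested.

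The triazoles were compared with each other at matched doses, in 9 pairs and 4 members. None of the 36 differences was called by limma, with or without the replicate block, and 0 had an unadjusted p under 0.05. At 100 uM, 0.562% of probe sets were called between Myclobutanil and Propiconazole, 0.501% between Propiconazole and Triadimefon and 0% between Myclobutanil and Triadimefon. For Cyp3a23-3a1 at 100 uM, Myclobutanil, with its nitrile, minus Propiconazole, with its dioxolane ring, was 0.12 units (95% interval -0.25 to 0.48). Myclobutanil minus Triadimefon, the ketone, was 0.01 units (interval -0.36 to 0.37), and Propiconazole minus Triadimefon was -0.11 (interval -0.48 to 0.25). At 10 uM, Myclobutanil minus Propiconazole was -0.29 units (interval -0.65 to 0.08) and Myclobutanil minus Triadimefon was -0.27 (interval -0.63 to 0.10). For Cyp3a18 at 100 uM, Myclobutanil minus Propiconazole was 0.42 units (interval -0.06 to 0.91, adjusted p = 0.645, and 0.0985 with the block), and Propiconazole minus Triadimefon was -0.35 (interval -0.83 to 0.14). The intervals hold both no difference and differences as large as these bounds. They rest on a spread pooled over all 12 groups, as do the other 95% intervals here. For Cyp3a23-3a1 at 100 uM the SD of the normalized values was 0.02 with Myclobutanil, 0.09 with Propiconazole and 0.03 with Triadimefon. The intervals thus do not measure the spread of the compared groups alone.

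The dose slope, per log10 unit from 10 to 100 uM, was called by limma for none of the 12 combinations of member and triazole (2 had an unadjusted p under 0.05), where 0.206% of probe sets were called with Myclobutanil, 7.94% with Propiconazole and 0.0612% with Triadimefon. The Cyp3a23-3a1 slope per log10 unit of dose was 0.44 units with Myclobutanil (interval 0.07 to 0.80, adjusted p = 0.48), 0.03 with Propiconazole (interval -0.33 to 0.40) and 0.17 with Triadimefon. The Propiconazole slope was -0.21 on the values as deposited. Cyp3a2 had a Myclobutanil slope of 0.55 units (adjusted p = 0.571) and Cyp3a18 a Propiconazole slope of -0.43 (adjusted p = 0.328). With the replicate block these last 2 were called (adjusted p = 0.0208 and 0.0388), where 5.02% and 22.3% of probe sets were called with Myclobutanil and Propiconazole. None of the 24 steps between neighbouring doses was called by limma, and 1 had an unadjusted p under 0.05, the Cyp3a18 step given above. The Cyp3a23-3a1 step between 30 and 100 uM was 0.08 units with Myclobutanil (interval -0.28 to 0.45) and 0.03 with Triadimefon (interval -0.34 to 0.39).

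Ordered by mean level, Cyp3a23-3a1 was highest with Propiconazole at 30 uM (3.72 ± 0.06 units), then Myclobutanil at 100 uM (3.69 ± 0.02), Triadimefon at 100 uM (3.69 ± 0.03) and Triadimefon at 30 uM (3.66 ± 0.11). It went on through Myclobutanil at 30 uM (3.61 ± 0.08), Propiconazole at 100 uM (3.58 ± 0.09), Propiconazole at 10 uM (3.54 ± 0.11) and Triadimefon at 10 uM (3.52 ± 0.14). The lowest were PB (3.46 ± 0.25), PCN (3.37 ± 0.61, n = 2), Myclobutanil at 10 uM (3.25 ± 0.27) and DMSO (2.78 ± 0.46), with errors as SD and n = 3 where not given. Neighbours among the treated groups differed by less than the larger of their 2 SDs. The order and the SDs are those of the normalized values only. As deposited, Propiconazole at 30 uM spanned 3.01 to 5.55 units and Myclobutanil at 100 uM 3.42 to 4.02. PB then read 3.83, 3.59 and 3.19 units on Rs256, Rs293 and Rs304, against 3.31, 3.06 and 3.83 with Propiconazole at 100 uM. The probe set ranked between 14 and 473 from the top on the 35 arrays, where rank 1 is the brightest. The DMSO arrays held ranks 115, 473 and 472 for Rs256, Rs293 and Rs304, and these ranks were taken on the deposited values. Array saturation at this brightness was not tested.

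No difference of a Cyp3a member from DMSO was called with the positive controls. Cyp3a23-3a1 read 3.58, 3.64 and 3.17 units with PB on the Rs256, Rs293 and Rs304 arrays, and 2.94 and 3.80 with PCN on the Rs293 and Rs304 arrays, against 3.32, 2.52 and 2.52 in DMSO. The Rs304 array of PB and the Rs293 array of PCN lay below the highest DMSO array, yet each was above the DMSO array of its own code. Differences from DMSO were 0.68 units for PB (SE 0.178, adjusted p = 1, and 0.331 with the block) and 0.58 for PCN (SE 0.199, adjusted p = 1, and 0.666 with the block). Each of these comparisons called 1 probe set of 17971 (0.00556%).

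Cyp3a2 with the positive controls showed the same split by array. It was 0.67, 0.55 and -0.01 units with PB and -0.06 and 0.73 with PCN, in the same order of codes, against 0.13, -0.27 and -0.27 in DMSO. Cyp3a18 was 1.34, 1.47 and 1.42 units with PB and 0.95 and 2.19 with PCN, against 1.34, 0.79 and 1.18 in DMSO. After normalization, the PCN array of Rs304 held the highest Cyp3a23-3a1 and Cyp3a18 values of all 35 arrays. Its PCN partner of Rs293 then held the lowest Cyp3a23-3a1 value of the treated arrays. The 12 differences between a triazole and PCN, both at 30 uM, were all uncalled by limma, with 0 under an unadjusted p of 0.05 and 0% of probe sets called. For Cyp3a23-3a1 they were 0.24 units for Myclobutanil (interval -0.16 to 0.65), 0.35 for Propiconazole (interval -0.06 to 0.76) and 0.29 for Triadimefon (interval -0.11 to 0.70). PB was given at another dose and is not set against the triazoles by a test.

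**Figure D4:**
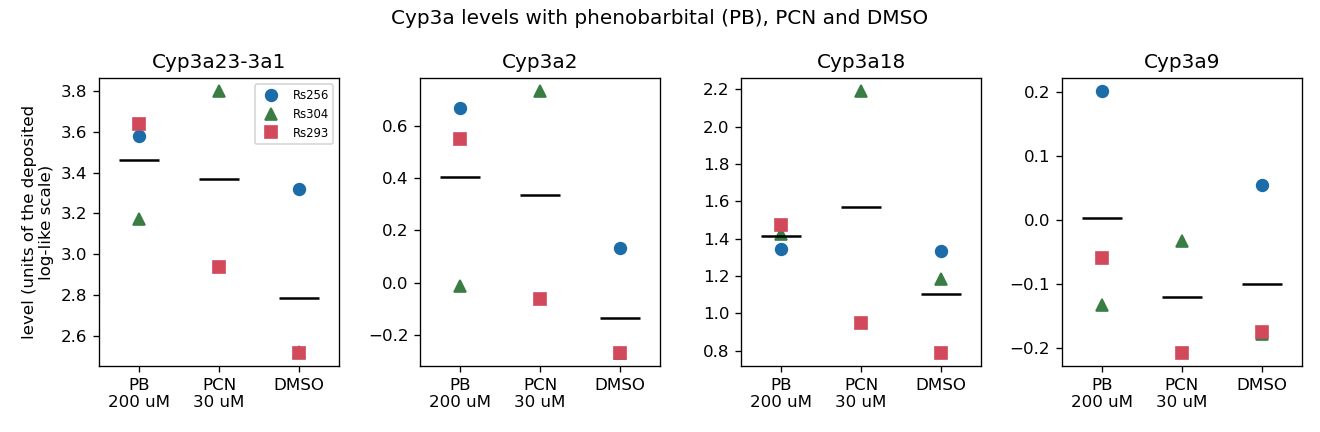
Normalized level (vertical axes, units of the deposited log-like scale) of the 4 measured Cyp3a genes with PB at 200 uM, PCN at 30 uM and DMSO, 1 point per array marked by Rs code and a bar at the mean. The 2 PCN arrays lie at 2.94 and 3.80 units for Cyp3a23-3a1. The Rs293 and Rs304 DMSO points coincide for Cyp3a23-3a1 and Cyp3a2.

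All 4 members differed by Rs code once treatment was in the fit, as did 65.7% of the probe sets tested. Cyp3a2 averaged 0.68 units on the Rs256 arrays, 0.23 on the Rs293 arrays and 0.11 on the Rs304 arrays (adjusted p = 7.32e-07 by limma). Cyp3a9 averaged 0.17, -0.06 and -0.08 units (adjusted p = 6.49e-10), and Cyp3a23-3a1 3.64, 3.45 and 3.41 (adjusted p = 0.0314). Cyp3a18 was ordered otherwise, with 1.35 units on Rs256, 1.14 on Rs293 and 1.53 on Rs304 arrays (adjusted p = 3.05e-05). These means are over the 11 groups other than PCN (n = 11 arrays per code).

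The triazole response of Cyp3a23-3a1 was also read within each code, and its difference between codes was not called. Over the 9 triazole arrays of a code minus its DMSO array, the mean was 0.36 units in Rs256, 1.02 in Rs293 and 1.02 in Rs304 (SE 0.091 each). Rs256 minus the mean of the other codes was -0.66 units (SE 0.111), with an adjusted p of 0.125 over all probe sets, and -0.39 on the values as deposited. No probe set was called in this comparison (0%), which was added after the values had been seen. Each code has 1 DMSO array, so the response of a code and the level of that array cannot be told apart. The SEs rest on the spread of the triazole arrays and do not measure that of the DMSO arrays. Cyp3a2 responded by 0.61, 0.51 and 0.43 units in Rs256, Rs293 and Rs304, and Cyp3a9 by 0.12, 0.13 and 0.11. Cyp3a18 responded by 0.01, 0.35 and 0.40 units, with 6, 7 and 9 of 9 triazole arrays above DMSO.

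**Figure D5:**
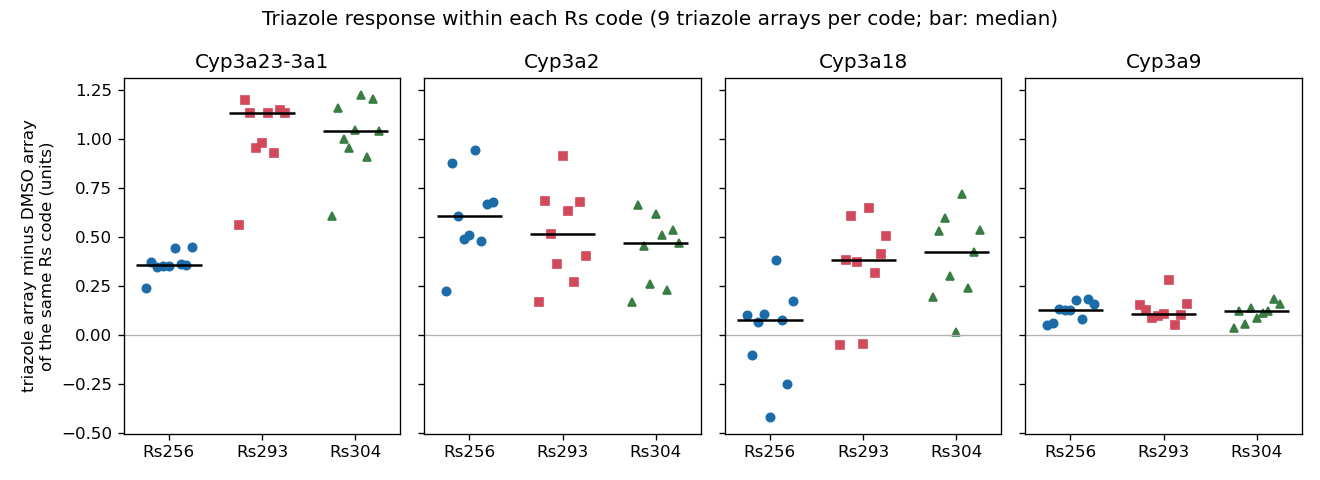
Triazole array minus the DMSO array of the same Rs code, in units (vertical axis), for the 4 measured Cyp3a genes, with 9 triazole arrays per code and a bar at the median. Cyp3a23-3a1 lies between 0.24 and 0.45 units in Rs256 and between 0.56 and 1.23 units in the other codes. The Cyp3a18 points of Rs256 fall on both sides of 0.

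Other genes of the PXR and CAR programme were read from a list of 25 targets, of which 17 had a probe set naming that gene alone and 15 were tested. Cyp2b1, Cyp2b2, Ugt1a1, Gsta2 and Akr1b7 were among the listed genes not tested, so their response is not known here. At 100 uM, 3 of the 15 rose with each triazole, where 0.373%, 5.79% and 0.69% of all probe sets were called higher with Myclobutanil, Propiconazole and Triadimefon. With Myclobutanil 1 fell and with Propiconazole 2 fell, where 0.412%, 5.53% and 0.857% were called lower in the same order of compounds. The medians of the list were 0.09, 0.09 and 0.01 units in that order. Over all probe sets tested the medians were 0.00526, 0.00366 and 0.0047 units. Abcc2, an exporter of conjugates into bile, rose by 0.95 units with Myclobutanil (adjusted p = 0.0316), 0.95 with Propiconazole (adjusted p = 0.00344) and 0.91 with Triadimefon (adjusted p = 0.0249). Cyp2c6v1, a P450 of the CYP2C family, rose by 1.42, 1.31 and 1.27 units in the same order (adjusted p = 0.0367, 0.00845 and 0.0468). Ugt2b1, a glucuronosyltransferase, rose by 0.73 units with Myclobutanil and 0.56 with Triadimefon (adjusted p = 0.000466 and 0.0034), and was 0.18 with Propiconazole (adjusted p = 0.273). Propiconazole did raise Ugt2b1 at lower doses, by 0.60 units at 10 uM (adjusted p = 0.0361) and 0.78 at 30 uM (adjusted p = 0.00046). At 30 uM it also rose with Myclobutanil (0.73 units, adjusted p = 0.0015) and Triadimefon (0.65 units, adjusted p = 0.0104).

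Among the 15 tested genes of this list, Ugt2b1 was also the one that PB and PCN raised, by 0.71 units (adjusted p = 0.0023) and 0.69 units (adjusted p = 0.0243). Abcb1a, an efflux pump for drugs, rose by 0.54 units with Propiconazole at 100 uM (adjusted p = 0.0018). Aldh1a1, a retinaldehyde dehydrogenase, fell by 0.56 units with Myclobutanil and by 0.63 with Propiconazole (adjusted p = 0.0159 and 0.000508). Ces2c, a carboxylesterase, fell by 0.46 units with Propiconazole (adjusted p = 0.00458).

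With the replicate block, 5 of the 15 targets were called higher and 1 lower with Myclobutanil at 100 uM, 4 higher and 3 lower with Propiconazole, and 5 higher and 1 lower with Triadimefon. The blocked fit called 3.77%, 13.7% and 4.71% of all probe sets higher and 4.23%, 13.4% and 5.26% lower, in the same order. Abcb1a was added by the block with Myclobutanil (0.31 units, adjusted p = 0.282 without it and 0.00698 with it) and with Triadimefon (0.33 units, adjusted p = 0.161 and 0.00322). Gadd45b, a protein of the stress response, was added with Myclobutanil (0.62 units), Propiconazole (0.45) and Triadimefon (0.54), with blocked adjusted p of 0.00175, 0.00621 and 0.00423. Called lower only in the blocked fit were Aldh1a1 with Triadimefon (-0.42 units, adjusted p = 0.0601 without the block and 0.0147 with it) and Slco1a4, an uptake transporter, with Propiconazole (-0.50 units, adjusted p = 0.262 and 0.0266). Cyp2c6v1 was called higher with the block in PB and PCN (adjusted p = 6e-06 and 0.000158), where 0.0167% and 0.0223% of probe sets were called higher, and also at 10 and 30 uM of each triazole.

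Of 14 tested genes of the receptors and their partners, 1 was called at 100 uM, Foxo1, a forkhead factor of fasting metabolism, which fell by 0.44 units with Propiconazole (adjusted p = 0.0102), where 5.53% of all probe sets were called lower. With the block 2 were called lower there, against 13.4% of all probe sets, the second being Nr1i3, the gene of CAR itself (-0.26 units, adjusted p = 0.618 without the block and 0.0331 with it).

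Among 9 genes listed for the supply of P450s with electrons and heme, Cyb5b, a cytochrome b5 of the mitochondrial outer membrane, rose by 0.40 units with Propiconazole at 100 uM (adjusted p = 1.24e-05), where 5.79% of all probe sets were called higher, and no other was called without the block. With it, 4 were called higher with Myclobutanil, 3 with Propiconazole and 3 with Triadimefon, and 1 was called lower with each, against the blocked shares given above. Hmox1, which breaks heme down rather than supplying it, had differences of 0.72, 1.08 and 0.72 units (blocked adjusted p = 0.000168, 6.24e-08 and 0.000133). Cyb5a, the microsomal cytochrome b5, had 0.24, 0.15 and 0.18 units in the same order of compounds (blocked adjusted p = 0.00379, 0.0341 and 0.023). Por, the reductase that passes electrons to P450s, was called with Myclobutanil (0.40 units, blocked adjusted p = 0.00167) and Triadimefon (0.28 units, blocked adjusted p = 0.0165), and Cyb5b also with Myclobutanil (0.16 units, blocked adjusted p = 0.0265). The gene called lower was Fech, which inserts iron into heme, at -0.24, -0.23 and -0.25 units (blocked adjusted p = 0.000333, 6.04e-05 and 0.000183).

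Among 10 tested regulators of constitutive and sex-dependent Cyp3a levels, Stat5b, the growth hormone signal transducer, rose by 0.39 units with Propiconazole at 100 uM (adjusted p = 1.32e-05) and Onecut1, a hepatocyte factor, fell by 0.82 (adjusted p = 0.0027), 1 gene each way where 5.79% and 5.53% of all probe sets were called. Myclobutanil and Triadimefon at 100 uM, PB and PCN called no gene of these last 3 lists without the block. With it, 1 regulator was called higher and 1 lower with Myclobutanil, 3 higher and 4 lower with Propiconazole, and 1 higher and 2 lower with Triadimefon, against the same blocked shares. Stat5b and Onecut1 were the calls with Myclobutanil (0.19 and -0.46 units, blocked adjusted p = 0.00525 and 0.00296), and were called with Triadimefon too (0.18 and -0.54 units, blocked adjusted p = 0.00684 and 0.000448). Ghr, the growth hormone receptor, was called lower with Propiconazole (-0.50 units, blocked adjusted p = 0.00169) and Triadimefon (-0.48 units, blocked adjusted p = 0.00763). The others added with Propiconazole were the liver transcription factors Cebpb (0.21 units, blocked adjusted p = 0.0493), Foxa2 (0.14, 0.0367), Cebpa (-0.29, 0.00293) and Foxa1 (-0.13, 0.0313).

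The genes whose levels ran most like a member's were found over the 35 arrays after the mean of each Rs code was removed. The arrays share treatments and normalization, so these correlations are a description. Cyp3a23-3a1 ran most like Ggt1 (r = 0.864), which splits glutathione conjugates, Pi4ka (0.841), Duoxa1 (0.823), Zdhhc2 (0.797), Col6a6 (0.797), Lrmda (0.792), Bnip3l (0.789), Apoa4 (0.784), Vldlr (0.770) and Nol3 (0.759). Cyp3a2 ran most like Pdzk1 (0.904), a scaffold for membrane transporters, Bnip3l (0.891), Duoxa1 (0.887), Ero1a (0.868) and Lrmda (0.859), so Bnip3l, Duoxa1 and Lrmda stood on both lists. Cyp3a18 ran most like Slco1a4 (0.940), an uptake transporter of bile salts and drugs, Itgb5 (0.888), Abcb4 (0.800), Zan (0.793) and Gstm3 (0.772). Cyp3a9 ran most like Nup210 (0.773), Zdhhc2 (0.769), Diablo (0.750), Efcab2 (0.742) and Rab11a (0.735). Among the members the correlation was 0.756 for Cyp3a23-3a1 with Cyp3a2, 0.658 for Cyp3a23-3a1 with Cyp3a9, 0.626 for Cyp3a23-3a1 with Cyp3a18 and 0.382 for Cyp3a9 with Cyp3a18.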

How the data were processed

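Labelled RNA was hybridized to 35 Affymetrix rat arrays, with 31099 probe sets each in the value table (57 controls). The values were deposited by the authors as a score on a log-like scale, and its base, probe summary, background correction and normalization are not given in the sources used here. Over non-control probe sets, array medians of the deposited values lay between -0.034 and 0.022 and SDs between 0.645 and 0.937. Probe sets were named from the platform annotation (1 gene for 20826, several for 436, none for 9780).

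Arrays were quantile normalized, and probe sets above the array median on at least 2 of 35 arrays were kept (17971). Comparisons used lmFit and eBayes of limma 3.58.1 in R 4.3.3, with 1 mean per group and no covariate, two-sided tests, Benjamini-Hochberg adjustment within each of 32 comparisons and a threshold of 0.05. The fit without the block was tested on simulated data with independent noise on each array and no Rs code effect. That test does not cover arrays that correlate within a code. Promoter matches were made in Python 3.11.15. The number of arrays limits the precision.

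The Rs code, read from the array titles, pairs arrays across groups. Deviations from the group mean correlated between arrays of 1 code, with r of 0.212 to 0.938 across compared groups and a median of 0.612 over 187 pairs and -0.347 for different codes. Since no protocol states a paired test, the code entered as a block in an alternative fit, and blocked values are printed where they change a call of a Cyp3a gene, or of another pathway gene at 100 uM, with PB or with PCN.

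Every probe set of the listed Cyp3a genes is described. Other pathway genes were named if called at 100 uM of a triazole, with PB or with PCN, and those called only with the block were added after their values were seen. The genes most like a member were the 10 (Cyp3a23-3a1) or 5 (others) with the highest r, using 1 probe set per gene, the one with the highest mean. Members and lists were chosen with earlier results of these data known. Alternatives were the deposited values, median centring with and without a common SD, no filter, 1 probe set per gene, only the groups compared, the block, and leaving out each array or Rs code.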

Additional observations from a re-analysis of the deposited data

How the results depend on the processing

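The count of members called against DMSO (3 of 44) depended on the processing. With the replicate block it was 12, with 1 probe set per gene 4 (adding Cyp3a23-3a1 with Propiconazole at 30 uM, adjusted p = 0.0486) and with no filter 3. It was 0 with no further normalization, 0 with arrays centred on their median, 0 with a common SD as well, and 1 in fits of only the groups compared (Cyp3a2 with Propiconazole at 100 uM). Those last fits called no Cyp3a23-3a1 difference. Leaving out 1 array or 1 Rs code gave 0 to 9 calls: 0 without the Rs293 or the Rs304 arrays, 4 without the Rs256 arrays and 9 without the Rs256 DMSO array. Adjusted p for Cyp3a23-3a1 at 100 uM then ranged from 0.00089 to 0.279 with Myclobutanil, 0.000194 to 0.0982 with Propiconazole and 0.00129 to 0.253 with Triadimefon, and the difference kept its sign throughout. The cause was not tested.

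Called slopes numbered 2 of 12 with the replicate block, against 0. Called steps between neighbouring doses numbered 1 of 24 with the block, 1 on the deposited values and 1 with median centring, and 0 to 1 with an array or code left out, against 0. The Rs code test called 1 to 4 members with a code left out (1, Cyp3a18, without Rs256). Unequal change was called for 1 of 6 pairs on the deposited values, and for 3 to 4 with a code left out. No triazole pair and no triazole against PCN was called under any alternative that was run.

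Values that changed sign, none of them called, were Cyp3a9 with PCN (0.059 with the replicate block, -0.15 to 0.067 with arrays left out), the Cyp3a23-3a1 Propiconazole slope (-0.21 as deposited, -0.20 median-centred, -0.10 with a common SD, -0.013 to 0.10 with arrays left out), Cyp3a18 with PCN (-0.15 to 1.09) and with Myclobutanil at 10 uM (-0.075 to 0.31), and Cyp3a9 with Myclobutanil at 30 uM (-0.0072 to 0.17). The Cyp3a9 response in Rs256 minus the other codes was -0.00604 with median centring, against 0.0013. Without the Propiconazole 30 uM array of Rs293, whose spread stood apart, the Cyp3a23-3a1 difference at that dose was 0.97 (adjusted p = 0.155). The number of arrays, 2 or 3 per group, limits what could be called.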
